A study of Mus musculus with 2 samples.

Results

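A set of 7 structural and catalytic RNA genes was examined in adult mouse testis: Rn7sk, Rn7s1, Rn7s2, Rmrp, Rpph1, Terc and Gm42418. They were picked by name, with their measured levels already known, and are 7 of the 43346 Ensembl genes in the deposited gene tables. Every level and every difference given for them is therefore a description and carries no test. Poly(A)-selected RNA from testis of male C57BL/6J littermates aged 8 weeks was sequenced in 2 libraries, called replicates 1 and 2. There was 1 group and no treatment, no transgene and no altered allele in the labels. RNA over 200 nucleotides long was depleted of ribosomal RNA, mixed with spike-in RNA and read as stranded pairs of 76 nucleotides. One donor identifier is shared by the libraries in the labels, so whether separate animals were used is open to doubt. The samples differed in epididymis markers, as given below. Each SD below measures only the spread between 2 samples that may come from 1 animal.

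These RNAs act as RNA, without being translated, and most of them work as the core of a ribonucleoprotein. 7SK (Rn7sk) holds the transcription elongation kinase P-TEFb inactive, 7SL (Rn7s1 and Rn7s2) is the scaffold of the signal recognition particle that takes nascent secretory proteins to the endoplasmic reticulum, Rmrp and Rpph1 are the RNA subunits of RNase MRP and RNase P, which process ribosomal and transfer RNA precursors, and Terc is the telomerase template. RNA polymerase III makes 7SK, 7SL, Rmrp and Rpph1, which normally end in a short uridine run and not in a long poly(A) tail. Mammalian Terc is made by RNA polymerase II. Gm42418 is annotated as a long intergenic RNA in a stretch of ribosomal RNA sequence, which is the product of RNA polymerase I, so the members do not share 1 polymerase.

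The RNAs of Rn7sk, Rmrp, Rpph1 and Terc are shown because their length and their runs of A are described next, in RNA that was selected for poly(A). They are written as DNA, 5′ to 3′, from the mm10 transcripts of GENCODE M21, Rmrp whole and Rn7sk, Rpph1 and Terc from base 1 to base 300. Capitals mark the longest run of A in each RNA and, in Terc, also the 8 bases complementary to the telomere repeat.
Rn7sk: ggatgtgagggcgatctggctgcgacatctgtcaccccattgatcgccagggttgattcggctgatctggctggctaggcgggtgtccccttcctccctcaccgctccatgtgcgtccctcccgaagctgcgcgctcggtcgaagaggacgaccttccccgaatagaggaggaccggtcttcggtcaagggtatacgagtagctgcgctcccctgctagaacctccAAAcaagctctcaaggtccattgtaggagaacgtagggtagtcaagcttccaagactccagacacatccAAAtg
Rmrp: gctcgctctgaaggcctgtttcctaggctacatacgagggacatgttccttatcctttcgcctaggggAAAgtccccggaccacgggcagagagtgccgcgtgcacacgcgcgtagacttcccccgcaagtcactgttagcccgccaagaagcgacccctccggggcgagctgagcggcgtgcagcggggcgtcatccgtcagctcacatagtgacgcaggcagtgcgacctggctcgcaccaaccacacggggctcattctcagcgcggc
Rpph1: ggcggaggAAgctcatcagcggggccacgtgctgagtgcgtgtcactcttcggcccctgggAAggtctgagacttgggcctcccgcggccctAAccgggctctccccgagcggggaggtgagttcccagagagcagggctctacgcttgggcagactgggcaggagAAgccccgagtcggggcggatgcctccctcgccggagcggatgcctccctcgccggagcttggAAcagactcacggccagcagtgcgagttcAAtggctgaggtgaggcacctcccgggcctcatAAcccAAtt
Terc: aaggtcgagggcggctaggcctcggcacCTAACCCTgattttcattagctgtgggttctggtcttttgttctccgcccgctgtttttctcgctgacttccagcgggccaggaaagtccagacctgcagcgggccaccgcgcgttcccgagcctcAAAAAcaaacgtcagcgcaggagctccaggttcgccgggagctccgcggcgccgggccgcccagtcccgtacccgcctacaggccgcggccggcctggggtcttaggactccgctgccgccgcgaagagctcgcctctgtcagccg

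Rn7sk lies at chr9:78175303-78175633 on the minus strand and is 331 bases long. Rn7s1 is at chr12:69159295-69159594 on the plus strand, and Rn7s2 is at chr12:69361182-69361481 on the minus strand. Rmrp is at chr4:43492788-43493058 on the minus strand and is 271 bases long. Rpph1 is at chr14:50807449-50807767 on the minus strand and is 319 bases long. Terc is at chr3:96414437-96414859 on the minus strand and is 423 bases long. Gm42418, at chr17:39846958-39848788 on the plus strand, is the longest member with 1831 bases. Each of the 7 genes had a single transcript in the deposited transcript tables, which held 100% of the gene's TPM.

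None of the RNAs holds a long run of A. The longest run was 3 bases in Rn7sk and Rmrp, 4 in 7SL, 2 in Rpph1, 5 in Terc and 6 in Gm42418. Among 16517 annotated transcripts of 250 to 450 bases, the median longest run was 4, and 70.9% held a run of at least 4. Rn7sk, 7SL, Rmrp and Rpph1 thus had runs at or under that median. Their G and C content was 58.0% in Rn7sk, 62.3% in 7SL, 64.2% in Rmrp and 67.1% in both Rpph1 and Terc. The capitals CTAACCCT in Terc begin at base 29, and 0.690% of the annotated transcripts of that length range hold these letters on either strand.

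Stretches upstream of Rn7sk, Rmrp and Rpph1 could be read from RefSeq promoter windows (GRCm38, the mm10 assembly) of genes that run the opposite way. They are shown because small RNA genes of this kind are controlled by upstream elements, among them an octamer, ATTTGCAT. Each is written on the strand of the small RNA gene, 5′ to 3′, and the octamer in either orientation is in capitals. The stretch for Rn7sk is chr9:78175664-78175963, minus strand, and covers bases 31 to 330 upstream of the gene. That for Rmrp is chr4:43493115-43493414, minus strand, bases 57 to 356 upstream. That for Rpph1 is chr14:50807768-50807965, minus strand, bases 1 to 198 upstream.
Rn7sk upstream: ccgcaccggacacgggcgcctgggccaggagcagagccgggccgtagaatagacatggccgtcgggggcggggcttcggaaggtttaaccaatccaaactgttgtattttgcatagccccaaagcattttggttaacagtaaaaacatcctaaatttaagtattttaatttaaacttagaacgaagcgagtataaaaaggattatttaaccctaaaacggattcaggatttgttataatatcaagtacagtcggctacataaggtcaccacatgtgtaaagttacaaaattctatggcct
Rmrp upstream: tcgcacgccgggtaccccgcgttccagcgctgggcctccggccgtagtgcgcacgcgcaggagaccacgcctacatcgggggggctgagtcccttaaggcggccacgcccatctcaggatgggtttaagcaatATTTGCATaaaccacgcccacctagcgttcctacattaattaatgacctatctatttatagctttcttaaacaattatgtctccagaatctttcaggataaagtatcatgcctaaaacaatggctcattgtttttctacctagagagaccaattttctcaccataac
Rpph1 upstream: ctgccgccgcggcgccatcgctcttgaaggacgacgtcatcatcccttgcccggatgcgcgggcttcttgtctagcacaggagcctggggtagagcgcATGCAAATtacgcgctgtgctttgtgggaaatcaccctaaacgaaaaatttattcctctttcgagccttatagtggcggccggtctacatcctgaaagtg
The Rmrp stretch held 1 octamer, beginning 223 bases upstream of the gene, and the Rpph1 stretch held 1 in the other orientation, beginning 100 bases upstream. The Rn7sk stretch did not hold these exact letters. Of 32851 RefSeq promoter windows of 300 bases, 1.74% held the octamer on either strand. The match is a description of the letters and not of a bound site.

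The total of expected counts was 50374324 for replicate 1 and 52788929 for replicate 2. All 15 testis markers, from germ cell genes such as Prm1 and Sycp3 to the Leydig cell gene Insl3, were at 1 TPM (transcripts per 1000000) or more in both libraries, with summed TPM of 71725 and 69484. The libraries differed in epididymis markers: 8 of 11 reached that level in replicate 1 and 1 of 11 in replicate 2, with summed TPM of 926 and 3.79 and no marker at 0 in both. Spike-ins took 2.68% and 2.51% of counts, and mitochondrial genes 0.636% and 0.942%. The part of these differences in the results below was not tested. In whole tissue, fewer cells of a type and less RNA per cell cannot be told apart.

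Measured per length, 7SK was among the highest RNAs of the testis libraries. The 7SL sum and Gm42418 came next, with 7SL above Gm42418 in replicate 1 and below it in replicate 2, while RNase MRP RNA, RNase P RNA and telomerase RNA were successively lower. All 7 members were detected, meaning 1 TPM or more in both libraries, as were 35.8% of all genes. TPM divides counts by the effective length, which is the number of positions at which a fragment can start. The 7 members together held 38098 TPM in replicate 1 and 49570 in replicate 2, or 3.81% and 4.96% of all TPM, but 1.17% and 2.20% of counts. Without Gm42418, the other 6 held 31397 and 35034 TPM. How much of each RNA passed the poly(A) selection was not measured. The order and ratios of levels given here and below thus describe these libraries and need not hold in the tissue.

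**Figure D1:**
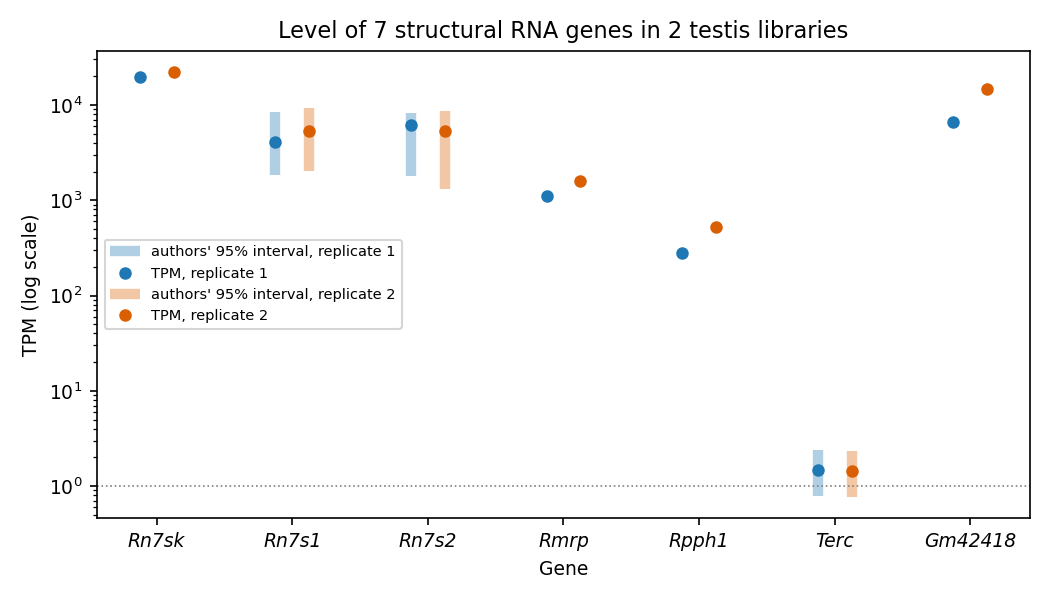
TPM of each gene in replicate 1 (blue) and replicate 2 (orange) on a log axis, with the authors' 95% interval of TPM as a pale bar, which is hidden by the point where it is narrow. The dotted line is a TPM of 1. Rn7sk is highest in both libraries, the bars of Rn7s1 and Rn7s2 span more than 4-fold, and Terc lies just above the line with bars that reach below it.

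Rn7sk, the scaffold RNA that inhibits P-TEFb, had 103520 counts in replicate 1 and 116250 in replicate 2. That was 0.206% of counts in replicate 1 (95% Wilson interval 0.204 to 0.207) and 0.220% in replicate 2 (0.219 to 0.221). Its TPM was 19817 and 22181, a mean of 20999 ± 1672 (SD, n = 2). Among Ensembl genes it had rank 2 by TPM in both libraries, but rank 21 and rank 19 by counts. The nearest gene in level was Tnp2, a transition protein gene of spermatids, at 25884 and 25433 TPM, by distance on the log2(TPM + 1) scale over 2 libraries. Rn7sk and Tnp2 did not overlap in TPM, and Tnp2 was higher in both.

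The rank of Rn7sk depends on how length is treated. Its effective length was 129 bases in replicate 1 and 124 in replicate 2, or 39.1% and 37.6% of its 331 bases. Counts per annotated kilobase and 1000000 reads were 6208 in replicate 1 and 6653 in replicate 2, rank 4 in both. On that scale Gm42418, at 4778 and 10290, was below Rn7sk in replicate 1 and above it in replicate 2. In TPM it was below Rn7sk in both, at 0.338 and 0.655 times its level.

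Reads of Rn7sk could also match other genes. Of its 256 windows of 76 bases, the read length, 64.8% also occurred in at least 1 of 4 other 7SK-like genes in the tables. Across 39 similar non-coding copies (at least 80% identity over at least 100 bases), 8 had any count in replicate 1 and 8 in replicate 2. Their summed counts were 106 and 169, or 0.103% and 0.145% of the counts of Rn7sk. The highest of the sharing copies, Gm24146, had 71.0 and 92.6 counts. The authors' posterior SD of the Rn7sk count was 4.09 and 5.11, so the deposited assignment left little of it uncertain.

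The 7SL pair showed the opposite. Rn7s1 had 16280 counts in replicate 1 and 21134 in replicate 2, with TPM of 4097 and 5368 (4732 ± 899, SD, n = 2). Rn7s2 had 24235 and 21134 counts, with TPM of 6098 and 5368 (5733 ± 516, SD, n = 2). The pair were equal in replicate 2 and differed in replicate 1. Rn7s1 and Rn7s2 were identical over 300 of 300 bases. Since all 225 windows of each are shared with the other, no read inside them can tell the genes apart.

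The authors' own uncertainty showed this. The posterior SD of each gene was 7644 counts in the first library and 9092 in the other, which for Rn7s1 is 35.1% and 40.0% of its posterior mean. The 95% interval of TPM ran from 1842 to 8338 for Rn7s1 and from 1783 to 8277 for Rn7s2 in replicate 1. In replicate 2 it ran from 2010 to 9348 and from 1313 to 8625. The intervals of the genes overlapped in both libraries. By expected counts Rn7s1 held 40.2% of the pair in replicate 1 and 50% in replicate 2, and by posterior means it held 53.7% in both. The order of Rn7s1 and Rn7s2 thus turned with the estimate used, and the values of either gene alone are uncertain.

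**Figure D2:**
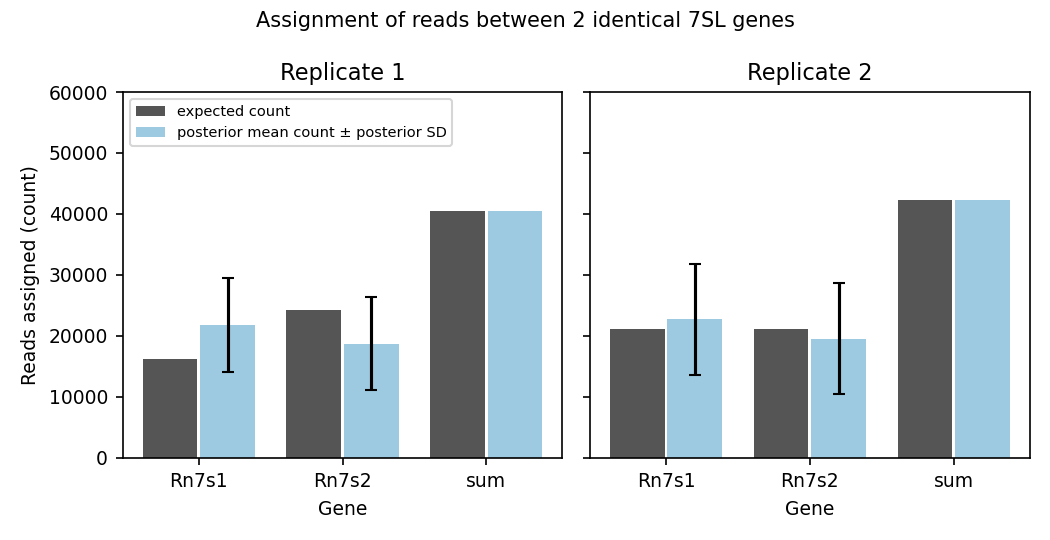
Expected counts (dark) and the authors' posterior mean counts (pale, with the posterior SD as error bar) of Rn7s1, Rn7s2 and their sum in each library. The sums of 40515 and 42269 counts are the same by both estimates, whereas the division between the genes is not.

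The sum of the pair was stable between estimates and between libraries. It was 40515 counts in replicate 1 and 42269 in replicate 2, with 10194 and 10736 TPM (10465 ± 383, SD, n = 2). As 1 gene, 7SL would take rank 5 in replicate 1 and rank 6 in replicate 2 by TPM. Rn7sk was 1.94 times as high as 7SL in TPM in replicate 1 and 2.07 times in replicate 2. Another 10 similar non-coding copies of 7SL had summed counts of 1.01 and 4. The nearest genes in level were Insl3 for Rn7s1 (4187 and 5278 TPM) and Tnp1 for Rn7s2 (4908 and 5536 TPM), but the uncertain division of the pair applies to this too.

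RNase MRP RNA was 7SL's next in level. Rmrp had 3102 counts in replicate 1 and 4340 in replicate 2, and its TPM was 1106 and 1597 (1351 ± 347, SD, n = 2). Its 95% intervals of TPM, 1058 to 1135 and 1536 to 1630, did not overlap. Its rank was 88 and 40 by TPM but 3421 and 2679 by counts. Its effective length of 69.5 and 64.5 bases was 25.6% and 23.8% of the annotated length, the smallest share among the members. The nearest gene in level was 1700029F12Rik, at 1188 and 1564 TPM.

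RNase P RNA was lower than RNase MRP RNA in both libraries. Rpph1 had 1319 counts in replicate 1 and 2455 in replicate 2, and its TPM was 278 and 518 (398 ± 170, SD, n = 2). Its 95% intervals of TPM, 261 to 291 and 494 to 535, did not overlap. Rmrp was 3.97 times as high as Rpph1 in TPM in replicate 1 and 3.08 times in replicate 2. In counts it was 2.35 and 1.77 times as high, since TPM divides by the shorter effective length of Rmrp. The 5 similar non-coding copies of Rpph1 had no counts. The nearest gene in level was the pseudogene Gm10925, at 258 and 446 TPM.

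Telomerase RNA was near the detection limit, so it was not abundant in these libraries. Terc had 13 counts in each library, and its TPM was 1.46 in replicate 1 and 1.43 in replicate 2 (1.445 ± 0.0212, SD, n = 2). The 95% interval of TPM was 0.795 to 2.38 in replicate 1 and 0.776 to 2.33 in replicate 2, so both reached below 1. Its rank by TPM was 15027 and 15017. Rpph1 was 190.6 and 362 times as high in TPM, and 101 and 189 times as high in counts. None of the 348 windows of Terc occurred in another annotated transcript. The agreement of the pair of values is closer than 13 counts can resolve.

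Gm42418 took more reads than any other gene. It had 440731 counts in replicate 1 and 994637 in replicate 2, which is 0.875% and 1.88% of counts. Its TPM was 6702 and 14535 (10619 ± 5539, SD, n = 2), rank 5 and rank 4 of all Ensembl genes, and the libraries were far apart relative to its narrow 95% intervals of 6621 to 6661 and 14372 to 14432. The TPM of replicate 1 and of replicate 2 lies just above its own interval, which is centred on the posterior mean TPM of 6642 and 14403. The nearest gene in level to Gm42418 was mt-Atp8, a mitochondrial gene, at 3921 and 9273 TPM. Of the 1756 windows of Gm42418 none occurred in another transcript of the tables. It overlaps annotated transcripts on the opposite strand, AY036118 among them, that were not analysed here.

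Between the libraries, Gm42418 and Rpph1 differed most among the members. After TMM scaling of counts, the log2 ratio of replicate 2 over replicate 1 was 1.10 for Gm42418 (95% counting interval 1.09 to 1.10), a 2.14-fold difference. It was 0.82 for Rpph1 (0.72 to 0.92), 1.76-fold, and 0.41 for Rmrp (0.34 to 0.47). For Rn7sk it was 0.09 (0.08 to 0.10). The 7SL sum had -0.02 (-0.04 to 0.00), and Terc had -0.08 with an interval of -1.30 to 1.15 that holds differences of 2-fold in either direction. Rn7s1 alone had 0.30 and Rn7s2 -0.27, and by posterior mean counts both had -0.02.

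Set against all 15533 detected genes, these differences fall in different places. The median log2 ratio of detected genes was 0.01 and the median absolute log2 ratio 0.17. One member, Gm42418, was past 2-fold, as were 1.66% of detected genes in either direction and 0.67% higher in replicate 2. An absolute log2 ratio larger than that of Gm42418 was found in 190 genes, or 1.22%, and one larger than that of Rpph1 in 440 genes, or 2.83%. For Rmrp the share was 15.9% and for Rn7sk 71.5%. Short genes varied more: of 401 detected genes of 250 to 450 bases, 11.0% were past 2-fold, and their median absolute log2 ratio was 0.34. Among 6950 detected genes that had 1000 counts or more in each library it was 0.13. In that set, which holds Gm42418, 0.187% were past 2-fold.

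The authors' 95% intervals of TPM did not overlap between the libraries for 4 members, Rn7sk, Rmrp, Rpph1 and Gm42418, all higher in replicate 2. The same held for 36.3% of detected genes in either direction and for 19.8% with the higher value in replicate 2. These intervals cover counting and read assignment, not differences between animals. The effective length of Rmrp fell by 7.19% from replicate 1 to replicate 2 and that of Gm42418 by 0.309%, so the ratio of TPM was further from 0 than that of counts for Rmrp (0.53) and little changed for Gm42418 (1.12). Scaling by spike-ins adds 0.11 to every log2 ratio. With it the 7SL sum had 0.09 and Terc 0.03 in place of values below 0, and Rn7sk, Rmrp, Rpph1 and Gm42418 stayed above 0 under each scaling tried.

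**Figure D3:**
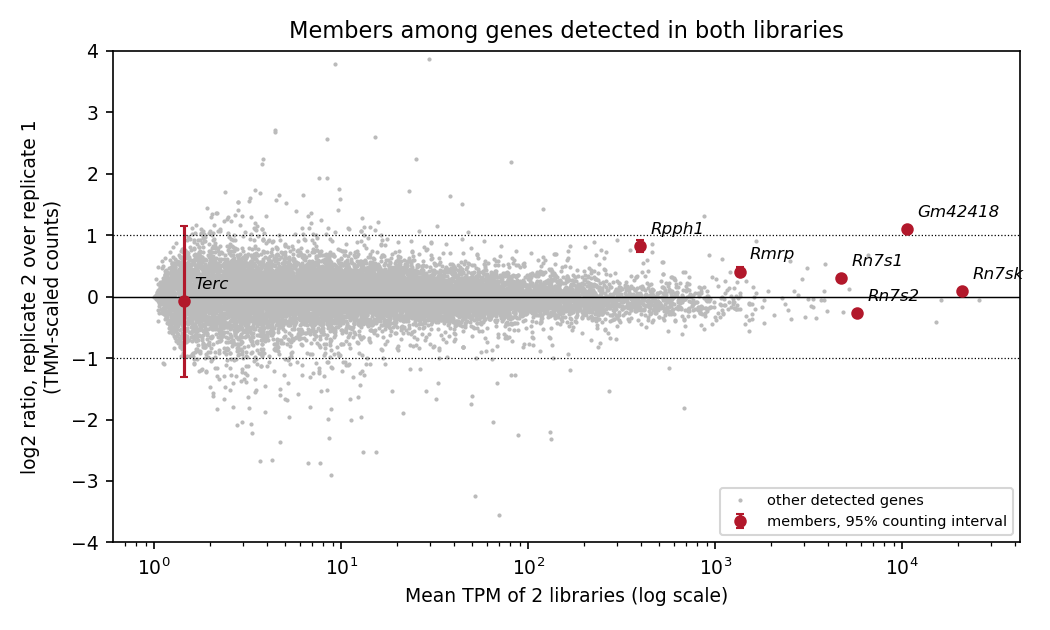
The log2 ratio of replicate 2 over replicate 1 in TMM-scaled counts against mean TPM on a log axis, for 15533 detected genes (grey) and the 7 members (red, with 95% counting intervals). Dotted lines mark 2-fold, and 6 genes lie outside the plotted range. Gm42418 lies above the 2-fold line and Rpph1 just under it, while Rn7sk is near 0 and the interval of Terc spans both lines.

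Other genes of ribosomal RNA sequence did not all move with Gm42418. Mitochondrial mt-Rnr2, the large ribosomal RNA of mitochondria, had 324 and 593 TPM, with a log2 ratio of 0.85. The small one, mt-Rnr1, had 63.9 and 175 TPM, with a log2 ratio of 1.43. Gm26917, which lies 617 bases from Gm42418 on the same strand, had 354 and 236 TPM and a log2 ratio of -0.69. Thus Gm42418 and both mitochondrial genes were higher in replicate 2, and its neighbour Gm26917 was lower. All 37 mitochondrial genes summed had 12808 and 22275 TPM and a log2 ratio of 0.56. A higher level in replicate 2 was therefore not particular to the ribosomal RNA of mitochondria. Of the other genes of this list in the tables, Gm15564 had 1 and 4 counts and Gm26870 had none.

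Genes within 5000 bases of the small RNA genes had lower TPM than the small RNA gene in both libraries. C920006O11Rik, which begins 281 bases from Rn7sk on the opposite strand, had 9.43 and 11.3 TPM, and Ick, 3196 bases away, had 9.09 and 7.28. Rps29, a ribosomal protein gene 109 bases from Rn7s1 on the opposite strand, was the highest of them with 1095 and 903 TPM. Nemf, 4017 bases from Rn7s2, had 5.03 and 6.62. Parp2, a DNA repair enzyme gene 74 bases from Rpph1 on the opposite strand, had 5.70 and 6.18. Arhgef39, 3084 bases from Rmrp, had 24.2 and 23.0, and the pseudogene Gm21960, 1076 bases from Terc, had 0.59 and 0.10.

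Transcripts overlap a pair of the members. Ccdc107 overlaps Rmrp on the opposite strand and shares 25% of its 196 windows, and it had 41.5 and 29.0 TPM. Ccnb1ip1 overlaps Rpph1 on the same strand, and it had 6.16 and 6.46 TPM. A newer annotated transcript of Ccnb1ip1 shares 158 of the 244 windows of Rpph1, but that transcript was not analysed here. The libraries are stranded per the labels, but how the counting used strand is not stated in the files. The only transcript of Ccdc107 that shares windows with Rmrp had 0 counts in replicate 1 and 4 in replicate 2. The authors' posterior SD of the Rmrp count was 0 in both libraries, so the deposited assignment left little of it uncertain.

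Genes of the proteins that bind these RNAs were detected for the most part, with list medians from 8.61 to 44.8 TPM beside 11.4 over all detected genes. Of all Ensembl genes 35.8% were detected, but these include short RNA genes of effective length 0. The share among protein-coding genes is not given here, so detection of most of a list may be ordinary. All 7 genes of the 7SK particle and P-TEFb were detected, with a median of 40.7 over the mean TPM of each gene. The library medians were 43.2 in replicate 1 and 33.6 in replicate 2 (SD 6.82, n = 2). For the lists below, ± after a median is likewise the SD of the library medians. Cdk9, the P-TEFb kinase, had 93.4 TPM in replicate 1 and 105 in replicate 2. Mepce, which caps the 5′ end of 7SK, had 89.7 and 97.6, and Larp7, which binds its 3′ end, had 43.2 and 48.6. Of the paired inhibitor proteins, Hexim2 had 47.8 and 33.6 TPM and Hexim1, the lowest of the list, had 5.37 and 5.0. Hexim2 was above Hexim1 in both libraries.

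Of 7 signal recognition particle protein genes 6 were detected, with a median of 44.8 TPM. The library medians were 44.4 in replicate 1 and 49.1 in replicate 2 (SD 3.30, n = 2). Srp14, which binds the Alu domain of 7SL, was highest at 142 and 139, followed by its partner Srp9 at 87.7 and 83.3. Among the copies of the GTPase subunit, Srp54c had 61.4 and 67.6 TPM and Srp54a had 0.17 in replicate 1 and was listed at 0 in replicate 2. Reads may be divided among these similar copies, so their separate values are uncertain.

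Of 11 protein genes of RNase P and RNase MRP 10 were detected, with a lower median of 12.1 ± 0.0707 TPM. Rpp21 was highest at 80.8 and 71.5, then Rpp25l at 24.4 and 18.9 and Rpp30 at 15.4 and 20.1. Rpp25, the paralog of Rpp25l, was the lowest and the only one of the list past 2-fold, at 0.50 and 0.19 TPM from 23 and 9 counts. All 7 telomerase protein genes were detected, with a median of 8.61 ± 0.311 TPM. The box H/ACA proteins Nop10 (107 and 93.5), Gar1 (38.3 and 43.0) and Nhp2 (28.4 and 29.0), which serve many other RNAs too, led that list. Tert, the catalytic subunit, was lowest at 1.24 and 1.5 TPM, near the level of Terc.

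Genes of the RNA polymerase III machinery were detected throughout, beside 35.8% of all Ensembl genes and with the same limit on that share. All 13 subunit genes reached the limit, with a median of 9.22 ± 0.226 TPM. Polr1d (122 and 117) and Polr1c (60.9 and 49.97), shared with polymerase I, and Crcp (49.4 and 48.4) were highest, and Polr3b, a large core subunit, was lowest at 3.64 and 4.17. All 19 factor genes in the tables were detected, with a median of 15.3 TPM. The library medians were 15.5 in replicate 1 and 13.9 in replicate 2 (SD 1.14, n = 2). Tbp, which serves all 3 nuclear polymerases, was far ahead at 190 and 226 TPM, followed by the repressor Maf1 (46.6 and 35.7) and Brf1 (35.8 and 32.6), and Bdp1 was lowest at 1.26 and 1.77.

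Between the libraries these lists stayed near the middle of all genes. The median log2 ratio was 0.14 for the 7SK list, with 5 genes higher and 2 lower in replicate 2. It was -0.01 for the signal recognition particle list (3 higher and 3 lower among 6 with counts in both) and -0.03 for the RNase P and MRP list (5 higher, 6 lower). For the telomerase list it was 0.00 (3 higher, 4 lower), for polymerase III subunits 0.02 (8 higher, 5 lower) and for its factors -0.06 (9 higher, 10 lower). Rpp25, which was not detected, was the only gene of these 6 lists with counts in both libraries that was past 2-fold. No detected gene of the lists was past 2-fold, beside 1.66% of all detected genes.

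**Figure D4:**
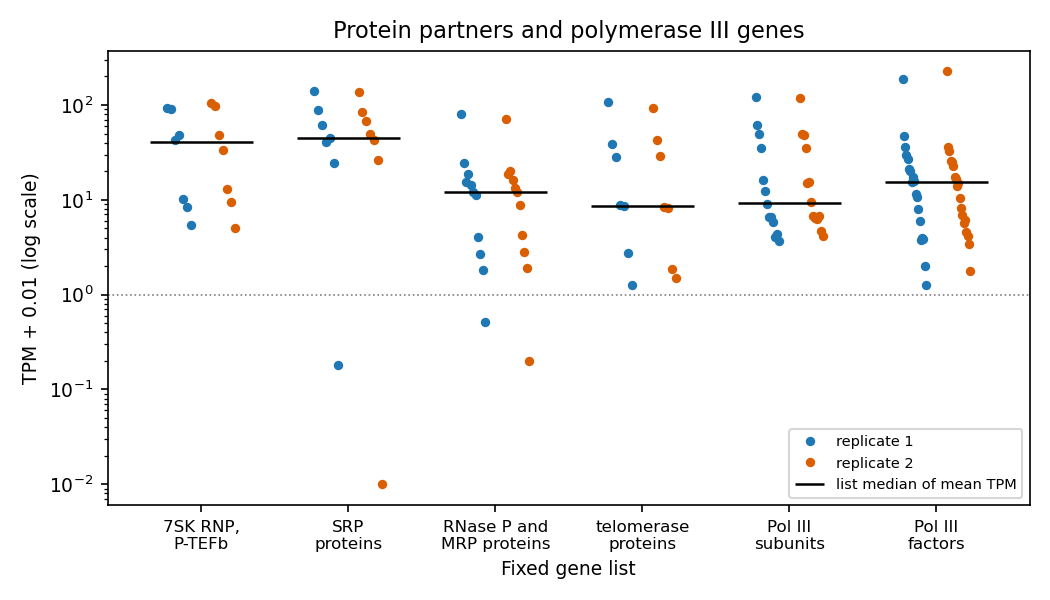
TPM + 0.01 on a log axis of the genes in 6 lists, in replicate 1 (blue) and replicate 2 (orange), with the list median of mean TPM as a black line and a TPM of 1 dotted. The 7SK and signal recognition particle lists have medians of 40.7 and 44.8, above the other lists, and Rpp25 and Srp54a are the genes under the dotted line.

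The members other than Gm42418 and Terc dominate the small non-coding RNA genes of these libraries. Terc, counted with them below, adds 13 counts in each library. Genes annotated as snRNA, snoRNA, scaRNA, other small RNA, ribozyme or ribosomal RNA number 3845, and 6 of them (the members other than Gm42418) held 97.4% of the counts of these types in replicate 1 and 97.6% in replicate 2. In TPM the shares were 96.5% and 97.1%. Of 3414 such genes no longer than 200 bases, 6 were detected, and they and the rest had 62.9 and 33.0 counts in all. Of 431 longer genes 25 were detected, or 19 of 425 without the members. For 3354 of the shorter genes the effective length was 0 in the tables, so a TPM of 0 there says nothing about the level.

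The other small RNAs of polymerase III and related RNAs lie under the size limit and were nearly without reads. Of 8 such genes in the tables none was detected. The Y RNAs Rny3 and Rny1 had 3 and 1 counts in replicate 1 and 1 and 0 in replicate 2, and Rnu11, a minor spliceosome RNA, had 0 and 2. Rnu6, Rnu7, Rnu12, Rnu73b and the vault RNA Vaultrc5 had no counts. A count of 0 leaves room for up to 3 counts, and with the RNA selected by length it does not show that these RNAs are absent from testis.

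**Figure D5:**
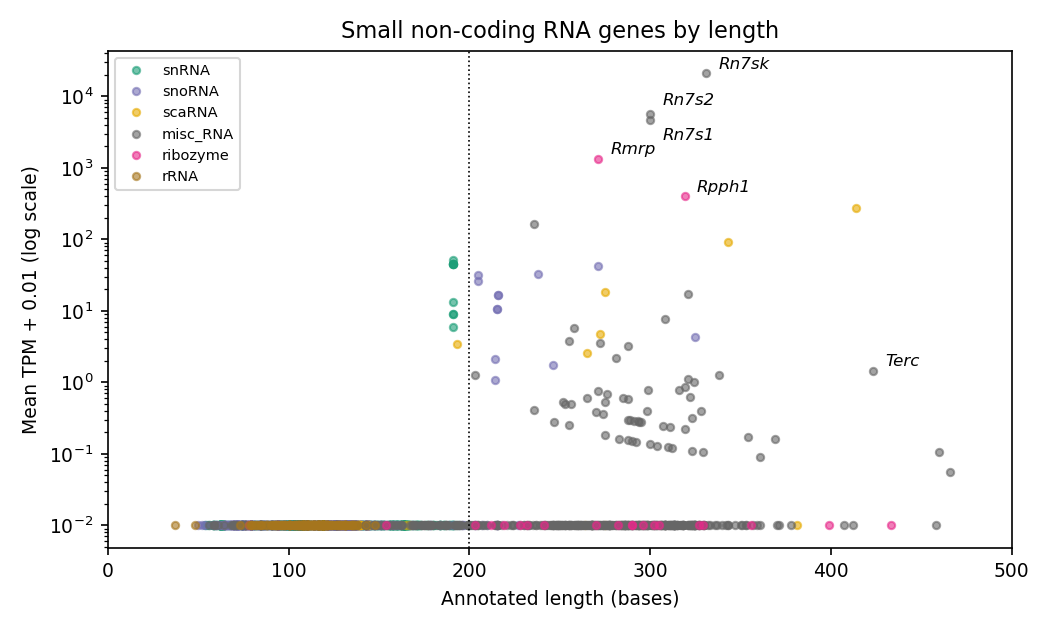
Mean TPM + 0.01 on a log axis against annotated length for 3845 small non-coding RNA genes, coloured by annotated type, with 1 gene longer than 500 bases left out and a dotted line at 200 bases. Rn7sk, Rn7s1, Rn7s2, Rmrp and Rpph1 lie above all other genes of these types, Terc lies far lower, and the few points just left of the line are snRNA genes of 191 bases and 1 scaRNA gene.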

How the data were processed

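The deposited readme names mm10 and annotation M4 for the gene and transcript tables used. Expected counts were computed by the authors per library from reads aligned to the transcriptome, per the file headers, and are not normalised. The authors scaled them to TPM and FPKM, per the file headers. The deposited tables also hold posterior mean counts with their SD, posterior mean TPM with interval bounds, and for each transcript the percent it holds of its gene's TPM. The quantifier, the aligner and the level of the intervals are named neither in the labels nor in the file headers (not given in the sources used here). The interval width for Rmrp, 7.04% of the posterior mean in replicate 1, equals that of a 95% counting interval (7.04%). Widths were also near for Rmrp in replicate 2 (5.92% and 5.95%) and for Rpph1 in both libraries. For Gm42418 the deposited width was larger, 0.603% against 0.590% in replicate 1 and 0.417% against 0.393% in replicate 2. The name 95% interval in this text rests on these widths. Expected counts divide reads that match several genes.

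The deposited tables list 69691 features: 43346 Ensembl genes, 97 spike-ins and 26248 numeric identifiers without counts. Symbols, positions and sequences came from GENCODE M21 by unversioned identifier (42462 matched), and upstream stretches from RefSeq. The 7SL sequence is not reported here. The members and gene lists were chosen with earlier results of these data known. Apart from the members, the text names, for each list, the 3 highest genes, the lowest and those past 2-fold, all genes within 5000 bases of a member, the gene nearest to each member in log2(TPM + 1) and the 5 other highest small RNA genes. Testis and epididymis markers, which the rule also covers, are given as counts and sums. Other genes were named after their values were seen. These include Hexim2, the copies of Rn7sk, Scarna13, the small nucleolar RNA genes and the small RNA genes under 200 bases.

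Rounded expected counts were scaled by TMM in edgeR 4.0.16 (R 4.3.3) over the 19534 genes that had 10 counts or more in each library. Size factors of DESeq2 1.42.0, spike-in totals, TPM ratios and posterior means were alternatives. The scaling was tested on simulated data of 43443 genes and spike-ins for the ratio of replicate 2 over replicate 1. A true scale of 1.3 came out as 1.30, and 100% of 200 genes changed 4-fold passed 2-fold. The simulation had counting noise only and as many genes raised as lowered, so it does not cover one-sided shifts or spread between samples. Ratio intervals are exact binomial and shares have Wilson intervals, both at 95% and covering counting error only. Similar copies were found with BLAST 2.17.0. With 1 group of 2 libraries no test was made. Each gene table held 1 library, so the columns used could be assigned to it. The contigs and junctions on mm9 were not used.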

Additional observations from a re-analysis of the deposited data

How the results depend on the processing

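No paired analysis was possible because the labels give 1 group. No called direction changed: of the 39 comparisons of a count or list with an alternative, 37 stayed within 1.5 times. The exceptions were the detected small RNA genes no longer than 200 bases, 6 as reported, which became 0 when at least 10 counts in both libraries were asked for, and 6 to 10 when either library was left out. Of 74 single-gene comparisons, 57 moved by less than the spread between replicates or the counting interval and 17 moved by more, mostly under spike-in scaling or TPM ratios. The 57 include mean TPM with 1 library left out. Those comparisons could not move by more, since a mean of 2 values always lies within their SD of each. The log2 ratio of Rn7s1 went from 0.30 to -0.02 with posterior mean counts, since the reads of the identical 7SL genes were divided in another way. With 2 libraries, which of them is unusual in Gm42418 or Rpph1 cannot be told apart, and Terc rests on 13 counts in each.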

Other observations

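Outside the members, the highest nuclear small RNA gene was Scarna2, which was far above the member Terc. It is a small Cajal body RNA gene of 414 bases, of a class that guides the modification of spliceosomal RNA, and it had 2349 counts and 274 TPM in replicate 1 and 2452 counts and 281 TPM in replicate 2. Gm22009, of the same class, had 86.6 and 99.0 TPM from 494 and 569 counts, and Scarna13 had 20.2 and 16.3 TPM from 60 and 47 counts. Gm27517, annotated only as another small RNA, had 149 and 176 TPM from 209 and 222 counts. Scarna2 and Gm22009 differed little between the libraries, with log2 ratios of -0.01 and 0.13. Among small nucleolar RNA genes, which guide the modification of ribosomal RNA, Gm23547 had 46.3 and 38.3 TPM from 130 and 104 counts, and Snord17 had 46.0 and 20.2 TPM from 68 and 27 counts.

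Just under the size limit, TPM was high on few counts. The U2 gene Rnu2-10 and 3 other snRNA genes of 191 bases, Gm23971, Gm23849 and Gm24950, each had 4.51 counts in replicate 1 and 2.75 in replicate 2, yet 43.8 and 45.7 TPM. Whether shared reads were divided among these genes of identical fractional counts was not tested, so their separate values are uncertain. Their effective length was 2.56 bases and 1.43 bases. Gm25360, of the same length, had 9 counts and 87.3 TPM in replicate 1 and 1 count and 16.6 TPM in replicate 2.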
